A study of Danio rerio with 15 samples.

Results

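The genes described here belong to the non-melanin pigment cells of the zebrafish larva and were measured with 2 organochlorine compounds. The 7 members were chosen by symbol, and each was present once among the 36351 genes of each deposited table. The members are pnp4a (Entrez gene 415192) and ltk (564470) of the iridophore, gch2 (64263), xdh (560486) and csf1ra (64274) of the xanthophore, and paics (321193) and gart (58141) of purine synthesis, which feeds both. None passed the test with either compound or between the compounds, while 10 and 9 of 11 melanophore genes rose in the same larvae. Of all genes tested, 1.89% passed with TCPM, 2.55% with TCPMOH and 0.453% between the compounds. At such shares, 0 of 7 genes passing is no result about the members. The members and lists were chosen with earlier results of these data known.

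Iridophores are the reflective pigment cells of fish. They shine through stacked platelets of guanine, a purine that they make in quantity. Xanthophores are the yellow to orange cells, coloured in the larva by pteridines, which are made from GTP, and later also by carotenoids taken from the diet. Both types arise from the neural crest, as does the black melanophore, which makes melanin from tyrosine. Purine synthesis therefore supplies the pigment of the iridophore directly and that of the xanthophore through GTP, and zebrafish mutants of paics and gart lack pigment of both.

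Whole larvae of the AB wild-type strain were collected at 100 hours post fertilization after waterborne exposure from 24 hours on to 50 nM TCPM, to 50 nM TCPMOH or to the vehicle DMSO at 0.01% by volume. TCPM is tris(4-chlorophenyl)methane, and TCPMOH, tris(4-chlorophenyl)methanol, carries a hydroxyl group in place of the hydrogen at the central carbon. Each of the 3 groups had 5 samples, pools of 8 to 10 larvae from 3 experimental replicates and 20 breeding pairs in all. The deposited tables hold results of DESeq2 and no column per library, so values per sample cannot be given. Base means of genes with 1 read in all gave 8 libraries behind each fit, the same 4 of DMSO and 4 of the compound, with 18.1 to 25.9 M assigned reads each, so 1 sample of each group did not enter. In RNA of whole larvae, fewer cells of a type and less RNA per cell cannot be told apart.

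All members were well above the lowest mean tested, so none was lost to a filter on low values. Group means on a common scale were computed from the deposited base mean and the fold change before shrinkage, as normalised read counts per library. They are not divided by gene length and are compared between groups only. Of the iridophore genes, pnp4a encodes a purine nucleoside phosphorylase that serves guanine formation. Its mean was 840.2 with DMSO, 892 with TCPM and 727 with TCPMOH. The ltk gene encodes the receptor tyrosine kinase that iridophores need to form, and its means were 508.5, 519.8 and 469 in the same order. Both iridophore members were thus lowest with TCPMOH and highest with TCPM, and the groups spanned 19.6% of the DMSO mean for pnp4a and 10.0% for ltk. No difference between groups passed for either gene, and most other iridophore markers did not share the order, as given below.

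The xanthophore gene gch2 encodes GTP cyclohydrolase, the first enzyme of pteridine synthesis. Its means were 2417 with DMSO, 2097 with TCPM and 2499.7 with TCPMOH, an order opposite to that of pnp4a and ltk. Xanthine dehydrogenase, the product of xdh, oxidises purines and pteridines on the way to the yellow pigment, and its means were 617, 598 and 602. The receptor of colony stimulating factor encoded by csf1ra is needed by xanthophores and is also carried by macrophages. Its means were 319.6 with DMSO, 331 with TCPM and 329 with TCPMOH. For xdh and csf1ra the groups spanned 2.95% and 3.70% of the DMSO mean, the narrowest spans among the members.

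The enzyme encoded by paics carries out a pair of middle steps of purine synthesis, and that encoded by gart carries out several others. Both genes are used by all growing cells. The means of paics were 1859.7 with DMSO, 1568 with TCPM and 1616 with TCPMOH, so both compounds lay below the control. Those of gart were 540.5, 575 and 524, with TCPM highest and TCPMOH lowest, as for pnp4a and ltk. The SD between libraries, taken from the standard errors of the fits after counting error was removed, reached 11.0% of the mean among the members in the TCPM fit, for gch2, and 17.0% in the TCPMOH fit, for csf1ra. DESeq2 draws these estimates toward those of genes with a like level, for which the median was 7.48% and 8.69%.

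**Figure D1:**
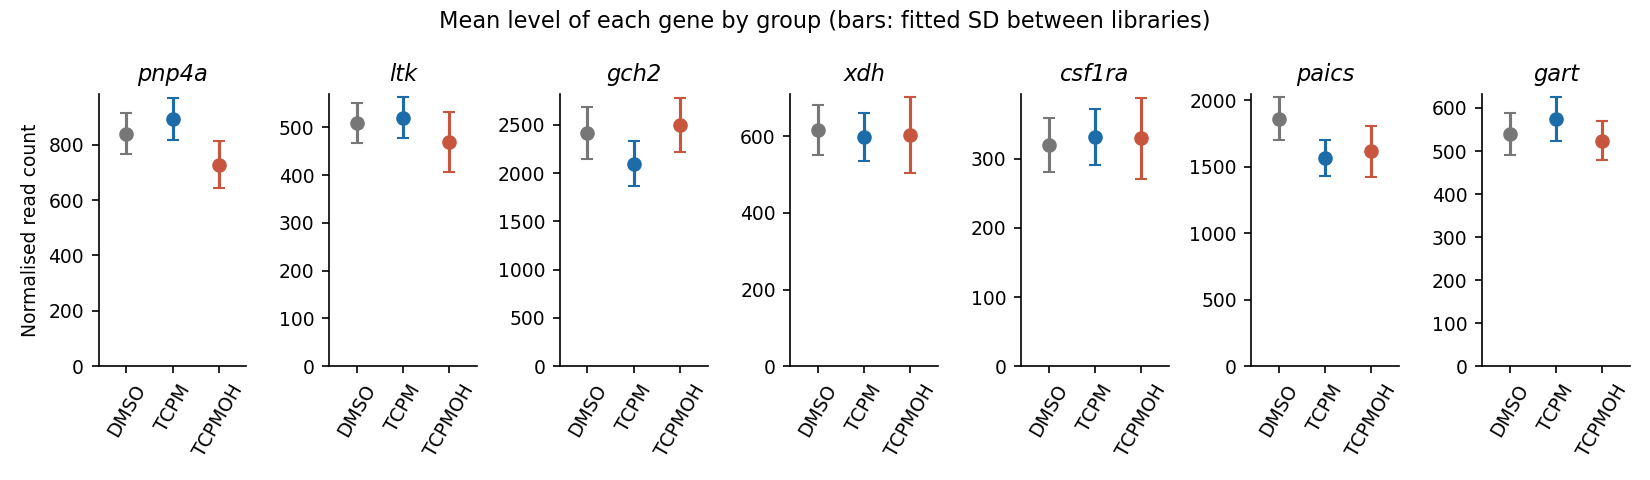
Group means of the 7 genes as normalised read counts per library (vertical axes, each from 0) for DMSO, TCPM and TCPMOH. Bars give the fitted SD between libraries, counting error included. In each panel the bars of both compounds overlap those of DMSO, for paics with TCPM, at 1568, by their ends only.

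TCPM was set against the vehicle to find genes that respond to the methane. None of the 7 members passed in DESeq2 at an adjusted p under 0.05, where 1.89% of all 22223 genes tested did, and 1 was under an unadjusted p of 0.05, beside 8.62% of all genes. That gene was paics. Its mean with TCPM was 84.3% of the DMSO mean, with a 95% interval of 74.7 to 95.1% before shrinkage. The authors' deposited table gives it a log2 fold change of -0.21 (SE 0.076, p = 0.00564, adjusted p = 0.176).

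The pteridine gene gch2 lay next, at 86.8% of the DMSO mean (95% interval 74.3 to 101%), with -0.16 in the authors' deposited table (SE 0.089, adjusted p = 0.645). The other purine gene, gart, was at 106% (93.9 to 120.5%), with 0.08 in the authors' deposited table (SE 0.078, adjusted p = 0.911). For the iridophore gene pnp4a the level was 106% (94.3 to 119.6%), with 0.07 in the authors' deposited table (SE 0.075, adjusted p = 0.909). The remaining members ltk, xdh and csf1ra lay at 97.1 to 104% of DMSO, with adjusted p-values of 0.979 to 0.986 in the authors' deposited table. Over the members the deposited log2 fold changes had a median of 0.03 and 4 of 7 were above 0, beside a median of 0.00 over all genes tested.

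With TCPMOH, the methanol, none of the 7 members passed in DESeq2 either, where 2.55% of 21491 genes did, and 0 were under an unadjusted p of 0.05, beside 9.68% of all genes. The iridophore gene pnp4a was at 86.6% of the DMSO mean (95% interval 73.8 to 102%), with a log2 fold change of -0.17 in the authors' deposited table (SE 0.096, p = 0.0782, adjusted p = 0.632). The purine gene paics was at 86.9% (73.8 to 102%), with -0.16 in the authors' deposited table (SE 0.097, p = 0.0914, adjusted p = 0.672). The receptor gene ltk was at 92.2% (76.5 to 111%), with -0.09 in the authors' deposited table (SE 0.105, adjusted p = 0.946). The levels of gch2, xdh, csf1ra and gart lay between 96.9 and 103% of DMSO. The members' median was -0.04 and 2 of 7 were above 0. Because both comparisons use the same DMSO libraries, the like values of paics in them are not independent. The same holds for every gene said below to rise or fall with both compounds.

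How large a change could have been called follows from the smallest Wald score called, 3.31 with TCPM and 3.22 with TCPMOH, times each gene's standard error before shrinkage. With TCPM a member needed a change of 1.21-fold (ltk) to 1.33-fold (csf1ra), and with TCPMOH of 1.22-fold (gart) to 1.51-fold (csf1ra). For paics with TCPM a level of 81.5% of DMSO or lower would have been called, against the 84.3% seen. For csf1ra with TCPMOH the interval ran from 80.4 to 132% of the control, the widest of all.

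**Figure D2:**
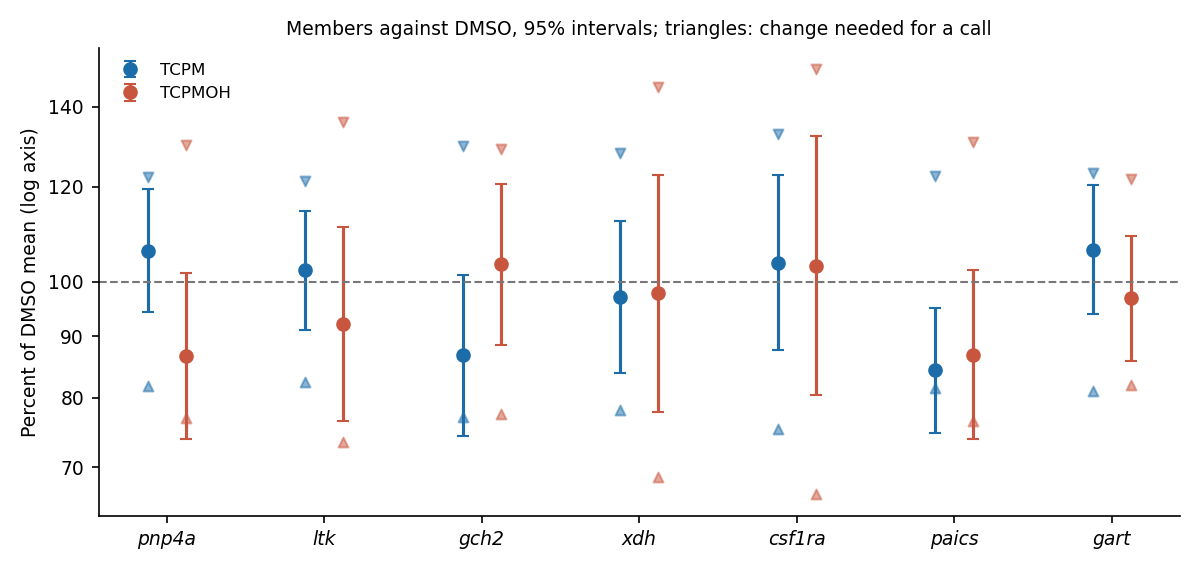
Level of each gene as percent of the DMSO mean (log axis) with TCPM (blue) and TCPMOH (red), before shrinkage, with 95% intervals. Triangles mark the level at which a gene would have been called; every point lies between its triangles, and paics with TCPM, at 84.3%, comes nearest to one.

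The compounds were given at 1 dose and 1 time, and their fold changes were tested against each other, as TCPMOH minus TCPM in log2, over 22732 genes. None of the 7 members passed the adjusted threshold, which 0.453% of all genes did, and 2 were under an unadjusted p of 0.05, beside 4.62% of all genes. They were pnp4a and gch2, in opposite directions. The mean of pnp4a with TCPMOH was 0.816 times that with TCPM (95% interval 0.707 to 0.942 before shrinkage). On the deposited, shrunken scale its difference was -0.24 (SE 0.087, adjusted p = 0.437, from a two-sided normal test adjusted by Benjamini and Hochberg's method).

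For gch2 the ratio was 1.19 (1.02 to 1.39), and the deposited-scale difference was 0.20 (SE 0.092, adjusted p = 0.951). Neither difference passed once all genes tested were adjusted for. The ratios of ltk and gart were 0.902 (0.766 to 1.06) and 0.911 (0.806 to 1.03). Those of xdh, csf1ra and paics were 1.01 (0.825 to 1.23), 0.995 (0.798 to 1.24) and 1.03 (0.890 to 1.19). These intervals do not show that the compounds act alike on the 5 genes, since each leaves room for a difference of at least 10% in some direction.

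**Figure D3:**
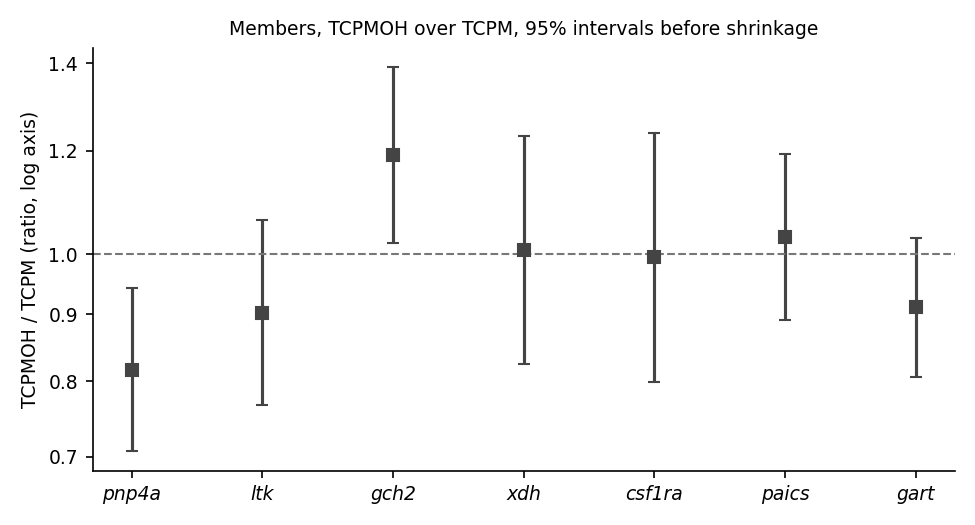
Ratio of the TCPMOH mean to the TCPM mean for each gene (log axis) with 95% intervals before shrinkage. The intervals of pnp4a, at 0.816, and gch2, at 1.19, leave out 1, those of the other genes include it, and none passed after adjustment over all genes.

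Other genes of the pathways were counted from lists. Of 32 further genes of purine synthesis and salvage, 1 fell with TCPM and 3 fell with TCPMOH in DESeq2, and none rose. Of all genes tested, 1.89% passed with TCPM and 2.55% with TCPMOH. At an unadjusted p under 0.05, 3 of the 32 were higher and 2 lower with TCPM, beside 8.62% of all genes. With TCPMOH 2 were higher and 5 lower, beside 9.68% of all genes. The gene that fell with both was impdh1a, for a form of inosine monophosphate dehydrogenase, which leads from the common purine precursor to guanine nucleotides. Which cells gave the reads of impdh1a was not tested. Its means were 741 with DMSO, 610.4 with TCPM and 525 with TCPMOH. The authors' deposited table has it at -0.25 for TCPM (SE 0.070, adjusted p = 0.0265) and -0.45 for TCPMOH (SE 0.076, adjusted p = 8.52e-07). Its paralogs impdh1b and impdh2, named after their values were seen, did not pass in DESeq2. They had -0.01 and -0.10 with TCPM (adjusted p = 0.994 and 0.712). With TCPMOH they had -0.10 and -0.18 (adjusted p = 0.714 and 0.217).

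The purine nucleoside phosphorylase gene pnp5a, a paralog of pnp4a, had means of 4262 with DMSO, 3905 with TCPM and 2827 with TCPMOH. It fell with TCPMOH, at -0.52 in the authors' deposited table (SE 0.082, adjusted p = 6.9e-08), and stood at -0.11 for TCPM (adjusted p = 0.746). It was the 1 gene of all the lists whose compounds differed, with a TCPMOH to TCPM ratio of 0.724 (95% interval 0.642 to 0.816) and an adjusted p of 0.000123. That call is lost when the covariance from the shared controls is set to 0, at an adjusted p of 0.152. The listed paralogs pnp4b, pnp5b and pnp6, named after their values were seen, did not pass in DESeq2. With TCPM they had 0.08, 0.25 and -0.12 (adjusted p = 0.891, 0.0644 and 0.764). With TCPMOH they had 0.07, 0.14 and -0.11 (adjusted p = 0.955, 0.733 and 0.848). Whether reads that match several paralogs were kept is not stated by the labels or headers, so the pnp genes are uncertain as single genes.

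The third gene that fell with TCPMOH was hprt1, for the enzyme that salvages hypoxanthine and guanine, at -0.22 in the authors' deposited table (SE 0.067, adjusted p = 0.0451). With no filter on low means its adjusted p was 0.0668 and the call was lost. The enzymes that share the synthesis route with paics and gart did not pass. For ppat, the first committed enzyme, the authors' deposited table has -0.05 for TCPM (adjusted p = 0.966) and -0.18 for TCPMOH (adjusted p = 0.413). For pfas it has -0.04 (adjusted p = 0.972) and -0.11 (adjusted p = 0.865), and for atic, the last enzyme, 0.05 with both (adjusted p = 0.955 and 0.973). These 3, and pax7a and mitfa below, were named after their values were seen. In RefSeq's GRCz12tu annotation paics overlaps its neighbour ppat, pnp4a overlaps sox12 and an uncharacterised locus, and ltk and xdh each overlap an uncharacterised locus. The library kit kept strand, but whether the counting used it is not given. Whether these genes overlap in the gene models that were counted is not known either. Reads of these 4 members that match an overlapped gene may therefore have been lost or counted for the other gene. The purine list had a median log2 fold change of -0.02 with TCPM and -0.05 with TCPMOH, beside 0.00 and 0.00 over all genes tested.

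Of 16 tested genes of pteridine synthesis and use beside gch2 and xdh, none passed with TCPM in DESeq2 and 1 fell with TCPMOH. The list also holds pah, th, tph1a, tph2 and mycbp2, so it is not one of pigment synthesis alone. Of all genes tested, 1.89% and 2.55% passed. At an unadjusted p under 0.05, 1 of the 16 was higher and 2 were lower with TCPM, beside 8.62% of all genes. With TCPMOH 1 was higher and 2 were lower, beside 9.68% of all genes. The gene that fell was sprb, for a sepiapterin reductase. It stood at -0.50 for TCPMOH in the authors' deposited table (SE 0.124, adjusted p = 0.00364) and -0.22 for TCPM (adjusted p = 0.542). Its paralog spra, named after its values were seen, did not pass in DESeq2, with 0.11 for both compounds (adjusted p = 0.882 and 0.918). A further listed gene, qdprb2, had no read. The median of the pteridine list was 0.01 with TCPM and -0.01 with TCPMOH. For gch1, the paralog of gch2 that serves other tissues as well, the authors' deposited table has 0.02 and 0.04 (adjusted p = 0.993 and 0.981), also named after its values were seen.

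Among 17 genes listed as xanthophore receptors, ligands and factors 3 rose with each compound in DESeq2 and none fell. Of 7 xanthophore markers, gch2, xdh and csf1ra among them, none passed with TCPM and 1 rose with TCPMOH. Of all genes tested, 1.89% passed with TCPM and 2.55% with TCPMOH. At an unadjusted p under 0.05, 5 of the 17 were higher and 1 lower with TCPM, beside 8.62% of all genes. With TCPMOH 3 were higher and 1 lower, beside 9.68% of all genes. The carotenoid genes scarb1, for a receptor that takes up carotenoids and lipoproteins, and bco1, for the enzyme that cleaves beta-carotene, rose with both. Both act outside pigment cells too, in the intestine among other tissues. The means of scarb1 were 594 with DMSO, 750.04 with TCPM and 847 with TCPMOH, and in the authors' deposited table it has 0.28 (adjusted p = 0.0478) and 0.43 (adjusted p = 0.000173). With no filter on low means its adjusted p with TCPM was 0.0689 and that call was lost. Those of bco1 were 812, 989 and 1132, and the authors' deposited table has 0.25 (adjusted p = 0.0231) and 0.40 (adjusted p = 0.00119) for it.

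The third gene that rose was another with each compound. With TCPM it was kcnj13, for a potassium channel that shapes the stripes of the adult. The authors' deposited table has kcnj13 at 0.29 (adjusted p = 0.00471), against 0.12 (adjusted p = 0.892) with TCPMOH. It is not among the xanthophore markers used here, and which cells gave its reads was not tested. With TCPMOH the third gene was slc2a15b, for a sugar transporter used as a xanthophore marker. The authors' deposited table has slc2a15b at 0.41 (adjusted p = 0.0014), against 0.23 (adjusted p = 0.272) with TCPM. The test between the compounds did not pass for either gene, with an adjusted p of 1.00 for both. The transcription factor gene pax7a, needed for xanthophores, had -0.26 with both compounds in the authors' deposited table (adjusted p = 0.0858 and 0.291). These were the lowest values of the list. Its paralog pax7b had -0.02 with TCPM and 0.04 with TCPMOH (adjusted p = 0.994 and 0.977). Both paralogs were named after their values were seen. The medians of the list were 0.01 and 0.04.

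Of the iridophore receptors, ligands and factors 14 were tested with TCPM and 13 with TCPMOH, and none passed in DESeq2. Under an unadjusted p of 0.05 were 1 and 0 of them, beside 8.62% and 9.68% of all genes. With TCPM the largest Wald scores were those of tfec, a transcription factor gene of the iridophore lineage, which the authors' deposited table has at 0.27 for TCPM (adjusted p = 0.194) and 0.17 for TCPMOH (adjusted p = 0.775), and of gpnmb, a melanosome protein gene, at 0.13 (adjusted p = 0.674) and 0.03 (adjusted p = 0.989). The list's medians were 0.06 and 0.03. Of 7 iridophore markers, pnp4a and ltk among them, none passed with either compound, beside 1.89% and 2.55% of all genes. Their medians were 0.08 and 0.01. The group means of tfec, gpnmb, alx4a and alx4b were lowest with DMSO, unlike those of pnp4a and ltk. The remaining marker, ednrba, had 0.09 with TCPM and -0.03 with TCPMOH in DESeq2 (adjusted p = 0.936 and 0.990). Here alx4a, alx4b and ednrba were named after their values were seen. Of 9 tested genes of the neural crest and of pigment progenitors 1 rose with TCPM and none passed with TCPMOH in DESeq2. Of all genes tested, 1.89% and 2.55% passed. At an unadjusted p under 0.05 were 1 of the 9 with TCPM and 2 with TCPMOH, beside 8.62% and 9.68% of all genes. The gene that rose was kita, the receptor gene that melanophores need. The authors' deposited table has it at 0.33 for TCPM (SE 0.068, adjusted p = 0.000208) and 0.26 for TCPMOH (adjusted p = 0.0934).

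Genes of the black pigment cell were counted in the same fits. Of 11 melanophore markers 10 rose with TCPM and 9 with TCPMOH, where 1.89% and 2.55% of all genes passed, and none fell. The medians of the markers' deposited log2 fold changes were 0.51 and 0.62. The gene of dopachrome tautomerase, dct, had means of 831 with DMSO, 1700.3 with TCPM and 1891 with TCPMOH, and the authors' deposited table has adjusted p-values of 2.16e-18 and 1.16e-23 for it. The melanosome matrix gene pmela had means of 2426, 3990.1 and 4512, and tyr, for tyrosinase, the enzyme that starts melanin synthesis, had 759.6, 1207 and 1275. In each of these genes both compounds lay above the control, whose libraries the fits share. The genes that did not pass were mc1r with both compounds and trpm1b with TCPMOH. Summed over the 10 markers with usable group means the level was 8167 with DMSO, 13496 with TCPM and 14637 with TCPMOH.

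The highest upper bound of any of the 7 iridophore, xanthophore and purine genes was that of csf1ra, 1.23-fold with TCPM and 1.32-fold with TCPMOH. The lower bounds of 8 of the 10 melanophore genes lay above it with TCPM, among them dct, tyr, pmela and oca2, and those of 6 with TCPMOH. The share of all genes with a lower bound above it was not counted. The bound of csf1ra was itself higher with TCPMOH, so 8 and 6 do not rank the compounds. The median of the 10 genes was 1.58-fold with TCPM and 1.71-fold with TCPMOH. These counts set intervals side by side, for lists chosen with earlier results of these data known. The difference between the lists was not tested. Most melanophore genes are also read in the retinal pigment epithelium, and these sources cannot be told apart in whole larvae. The log2 fold changes of mitfa, the factor gene that specifies melanophores, were -0.07 and -0.01 in the authors' deposited table (adjusted p = 0.959 and 0.995).

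Markers of macrophages and microglia, which share csf1ra with the xanthophore, were looked at beside it. None of 14 tested passed with TCPM and none of 13 with TCPMOH in DESeq2, beside 1.89% and 2.55% of all genes. None was at 0 reads. Under an unadjusted p of 0.05 were 2 and 0 of them, beside 8.62% and 9.68% of all genes. The medians of these markers were 0.09 and 0.08. Summed over the 7 with usable group means, the level was 15918 with DMSO, 16759 with TCPM and 16955 with TCPMOH, but apoeb, which other cells express as well, made up 89.6% of the DMSO sum. Without apoeb, left out after its values were seen, the other 6 summed to 1651, 1698 and 1749. With TCPM 10 of the 14 were above 0, and the median over all genes tested was 0.00. The lowest was mpeg1.2, with -0.28 for TCPM (adjusted p = 0.1998) and 0.04 for TCPMOH (adjusted p = 0.987) in the authors' deposited table. Its paralog mpeg1.1 has -0.01 and 0.04 there (adjusted p = 0.998 and 0.983). The other gene under the unadjusted threshold with TCPM, slc7a7, was higher, at 0.16, and has 0.08 for TCPMOH (adjusted p = 0.527 and 0.940). These genes were also named after their values were seen. How much of the csf1ra signal comes from macrophages was not tested.

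**Figure D4:**
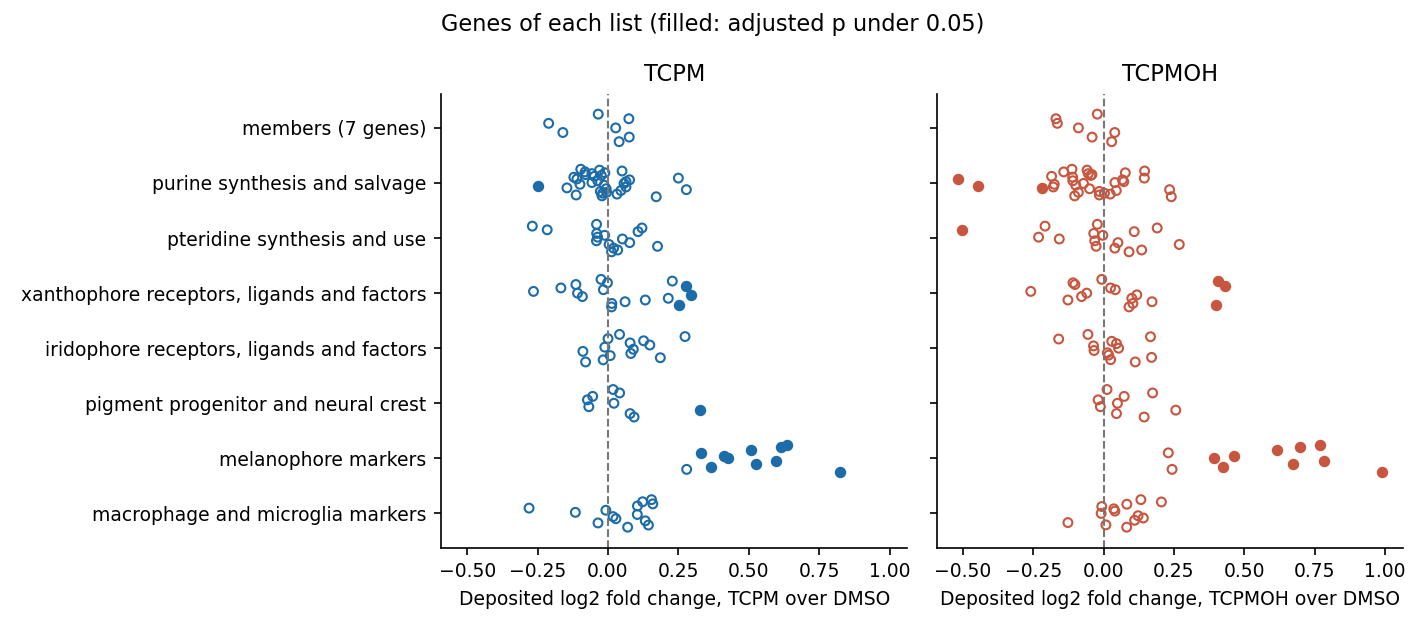
Deposited log2 fold changes against DMSO of the 7 members and of the genes of each list, TCPM left and TCPMOH right, 1 point a gene, filled where the adjusted p is under 0.05. The members show no filled point, where 1.89% and 2.55% of all genes passed. The melanophore markers have medians of 0.51 and 0.62.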

How the data were processed

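The members and lists were chosen with earlier results of these data known. Per the submitters' processing notes the authors ran DESeq2 after FastQC, cutadapt, STAR and featureCounts, without stated versions, and per the file headers they used V4.3.2 gene models. No source used here names the genome build. Per gene the deposited tables hold a base mean, which is a normalised signal (counts divided by size factors), a log2 fold change, the standard error of that log2 value, a Wald score, and a raw and an adjusted p-value, as the file headers name them. They hold 0 columns per library.

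Lone-read genes of 4 libraries per table (548 and 654 genes) were never at 0 in the other table, so these are DMSO. Their deposited fold changes were positive, so all signs were turned to compound over DMSO. The fits' shrinkage toward 0 was undone for a normal prior with an SD of 0.216 (TCPM) and 0.248 (TCPMOH), which is 2 times the largest standard error. The DMSO means implied by the tables then differed by a constant 0.061 in log2, removed here, and by at most 0.0013 beyond it in any member. Below a base mean of 100, or with a gap over 0.01, recovered values were not used. Group means assume equal group sizes. In the test between compounds the covariance from shared DMSO libraries was taken as the 2 standard errors multiplied and divided by 2, and genes needed a base mean of 10 or more in each table.

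A call is an adjusted p under 0.05. Named genes are the members, every list gene called in either table and, in pathway lists with no call, the 2 with the largest Wald scores; exceptions are marked. No member was called, so no genes of like pattern are named. The labels tie no library to an experimental replicate, so no batch term entered. P-values measure the spread between pools, which may share parents. Lists were matched by symbol; adss1, adss2, prps2, pcbd2, edn3a and mfap4.1 had no match. Python 3.11.15, NumPy 2.4.6, SciPy 1.17.1 and pandas 2.3.3 were used.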

Additional observations from a re-analysis of the deposited data

How the results depend on the processing

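No member was called under any alternative tried: adjusted p thresholds of 0.1 or 0.01, no filter on low means, a base mean of at least 100, centring on the median of all genes tested, and, between compounds, no covariance, no minimum or values before shrinkage. The smallest adjusted p among the members ranged from 0.147 to 0.253 with TCPM, 0.570 to 0.877 with TCPMOH and 0.366 to 1.00 between the compounds. With a covariance of 0 the count of list genes that differed between the compounds went from 1 to 0, and all genes called from 103 to 15; gch2 was then no longer under an unadjusted p of 0.05. The other counts of list genes called stayed within 1.5 times of 15 and 16, of which 10 and 9 were melanophore markers. At an adjusted p threshold of 0.01 the calls lost with TCPM were impdh1a, bco1, scarb1 and mlana. Those lost with TCPMOH were hprt1, mlana and slc24a5. At a threshold of 0.1, pax7a and pnp5b were gained with TCPM, and ada and kita with TCPMOH. With no filter on low means the calls lost were scarb1 with TCPM (adjusted p = 0.0689) and hprt1 with TCPMOH (adjusted p = 0.0668). With a base mean of at least 100, mlana with both compounds and sprb with TCPMOH were below the minimum, and ada with TCPMOH was called (adjusted p = 0.0445), as it was after centring (adjusted p = 0.0487). Leaving out libraries, edgeR, other normalizations and a replicate block were not run, because the tables hold no column per library. No paired analysis was possible, because the labels tie no library to an experimental replicate and no values per library are given. With 4 libraries a group, the change a member needed for a call depended on the gene. It ran from 1.21-fold (ltk) to 1.33-fold (csf1ra) with TCPM, and from 1.22-fold (gart) to 1.51-fold (csf1ra) with TCPMOH.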
